A study of Mus musculus with 12 samples.

Results

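The interleukin 1 family and its receptors were followed through 7 genes, Il1a, Il1b, Il1rn, Il1r1, Il1r2, Il1rap and Il18, out of 22180 genes measured in mouse bone marrow-derived dendritic cells. Members were taken by gene symbol from the platform annotation, and all 7 were measured. Interleukin 1 alpha and beta, the products of Il1a and Il1b, bind a receptor made of Il1r1 and the accessory chain Il1rap, which signals through MyD88 and IRAK kinases to NF-kB. Il1rn encodes the secreted antagonist that occupies this receptor without activating it, and Il1r2 encodes a decoy receptor without a signalling domain. Il18 encodes a related cytokine that, like interleukin 1 beta, is made as a precursor and cut by caspase-1. Dendritic cells are a known source of these cytokines after contact with bacterial products, and transcript levels do not report the amount of cytokine released.

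The cells came from marrow of C57BL/6 mice labelled male and aged 8 weeks, carrying either the Arc/Arg3.1 -/- genotype or Arc/Arg3.1 +/+, and were cultured for 7 days in 20 ng/ml GM-CSF. Groups of 3 arrays each held knockout cells given LPS, knockout cells left untreated, wildtype cells given LPS and wildtype cells left untreated. LPS, a bacterial cell wall component sensed by Toll-like receptor 4, was given at 100 ng/ml for 30 min and washed off, and RNA was taken 1 h later. The arrays within each group are labelled biological replicates with no statement on whether each had its own mouse. The p-values therefore reflect only variation among arrays, within the groups other than untreated wildtype, whose mean was counted as 1 sample. In such bulk samples fewer cells of a type cannot be told apart from less RNA per cell. All values below are log2 signals as deposited, so a difference of 1 is a 2-fold difference in signal.

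Some arrays stood apart, and the values that bear on the interleukin 1 genes are given here once. The 3 untreated wildtype arrays differed from one another by less than any other replicates (SD of the differences 0.105 to 0.108 over 6440 genes above a mean log2 signal of 8, against 0.193 to 0.438 in the other 9 pairs), so their mean was counted as 1 sample in the tests. Replicates 2 and 3 of both LPS groups had a low median signal of 78 small nucleolar RNA genes (9.73 to 9.87, against 10.44 to 11.04 on the other 8 arrays). Although every sample is labelled male, only 3 arrays had signal from Y-linked genes (mean 8.83 to 9.24, with Xist at 5.63 to 5.76): knockout untreated replicate 2, knockout LPS replicate 2 and wildtype LPS replicate 1. The other 9 had Y-linked means of 3.98 to 4.58 and Xist at 11.22 to 11.92. Arc was at 7.68 to 8.05 on the knockout arrays and at 9.21 to 9.62 on the wildtype arrays. Probe sets that the annotation assigns to no gene, called unassigned here, had a median of 5.89 to 6.10 per array, which serves as a guide to background. All 10 measured dendritic cell markers lay above this level on every array. All 9 macrophage and all 8 monocyte markers did so too, so this level does not set these cell types apart.

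Promoters of both agonists and the antagonist are shown because these genes changed together after LPS, by different amounts. RefSeq windows on build GRCm38.p6 were found for all 7 genes, and the 250 bases before each annotated start were searched on both strands. The motifs were the NF-kB consensus, the AP-1 motif TGANTCA, the C/EBP motif TTNNGNAA and the TATA box TATAAA. Capitals mark the matches, and each sequence runs 5′ to 3′ on the strand of its gene and ends just before the start.
Il1a, chr2:129309973-129310222, minus strand: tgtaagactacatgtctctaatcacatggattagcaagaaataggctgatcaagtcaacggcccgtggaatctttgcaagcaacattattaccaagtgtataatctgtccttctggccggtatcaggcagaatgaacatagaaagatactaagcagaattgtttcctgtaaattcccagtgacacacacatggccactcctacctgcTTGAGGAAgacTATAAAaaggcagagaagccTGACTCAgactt
Il1b, chr2:129371140-129371389, minus strand: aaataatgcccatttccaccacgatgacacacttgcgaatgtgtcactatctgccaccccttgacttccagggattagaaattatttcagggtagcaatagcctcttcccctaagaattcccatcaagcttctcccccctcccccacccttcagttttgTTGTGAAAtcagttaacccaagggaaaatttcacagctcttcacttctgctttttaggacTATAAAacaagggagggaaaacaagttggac
Il1rn first start, chr2:24336610-24336859, plus strand: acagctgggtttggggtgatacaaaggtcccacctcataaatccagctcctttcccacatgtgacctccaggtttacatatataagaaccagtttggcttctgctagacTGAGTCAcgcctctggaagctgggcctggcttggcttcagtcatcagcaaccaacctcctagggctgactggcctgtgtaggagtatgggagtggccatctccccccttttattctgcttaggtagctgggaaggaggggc
Il1rn last start, chr2:24345121-24345370, plus strand: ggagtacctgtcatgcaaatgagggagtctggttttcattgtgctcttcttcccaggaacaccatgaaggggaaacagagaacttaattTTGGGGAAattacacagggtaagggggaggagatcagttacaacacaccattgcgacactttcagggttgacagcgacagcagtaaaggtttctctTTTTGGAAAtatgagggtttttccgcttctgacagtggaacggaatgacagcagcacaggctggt

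Il1a and Il1b both held a TATA box close to the start, at 32 to 27 bases before it in Il1a and 31 to 26 bases before it in Il1b, and each held a C/EBP match upstream of that (43 to 36 and 91 to 84 bases before the start). Il1a also held an AP-1 match 12 to 6 bases before its start. The first start of Il1rn had 1 AP-1 match (141 to 135 bases before it) and the last had 3 C/EBP matches, of which a pair overlapped (65 to 58 and 64 to 57 bases before it). The window of a middle Il1rn start overlaps that of the last and is not printed. The single windows of Il1r2 and Il1rap held 0 matches, and that of Il18 held a TATA box on the opposite strand. Of the 7 genes, the NF-kB consensus was matched in a window of Il1r1, 232 to 223 bases before the start on the opposite strand, overlapping a C/EBP match. Among 32851 RefSeq windows of this length, the TATA box was in 12.4%, AP-1 in 6.75%, C/EBP in 36.8% and the NF-kB consensus in 7.25%. A match is a run of letters and not a binding site, and a missing match says only that these letters are not in the window.

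LPS raised 4 of the 7 genes in each genotype: both agonists Il1a and Il1b, the antagonist Il1rn and the decoy receptor Il1r2. The signalling receptor Il1r1 and its partner Il1rap did not pass the test in either genotype, and neither did Il18, whose signal was lower on every LPS array. Across all genes tested, LPS changed 5.91% in knockout cells (2.98% higher and 2.93% lower) and 1.57% in wildtype cells (1.34% higher and 0.234% lower), by limma with a Benjamini-Hochberg adjusted p under 0.05. The wildtype comparison rests on 1 counted untreated sample, so each gene had a larger SE there (Il1a 0.39, against 0.28 in knockout cells). Counts of passing genes, here and in the lists below, therefore do not compare the breadth of the response between genotypes. For the interaction of genotype and LPS, 0% of all genes passed. With the replicate number as a block, fitted without the untreated wildtype arrays, the count in knockout cells was 2312 genes, against 1311 without it, and the calls of the 7 genes in knockout cells stayed as they were. The median log2 difference of the 7 genes was 1.19 in knockout and 1.39 in wildtype cells, beside -0.0037 and -0.0053 over all genes. All 3 LPS arrays lay above all 3 untreated arrays for those 4 genes in both genotypes, an arrangement that 10.3% of all genes showed in knockout and 16.2% in wildtype cells.

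**Figure D1:**
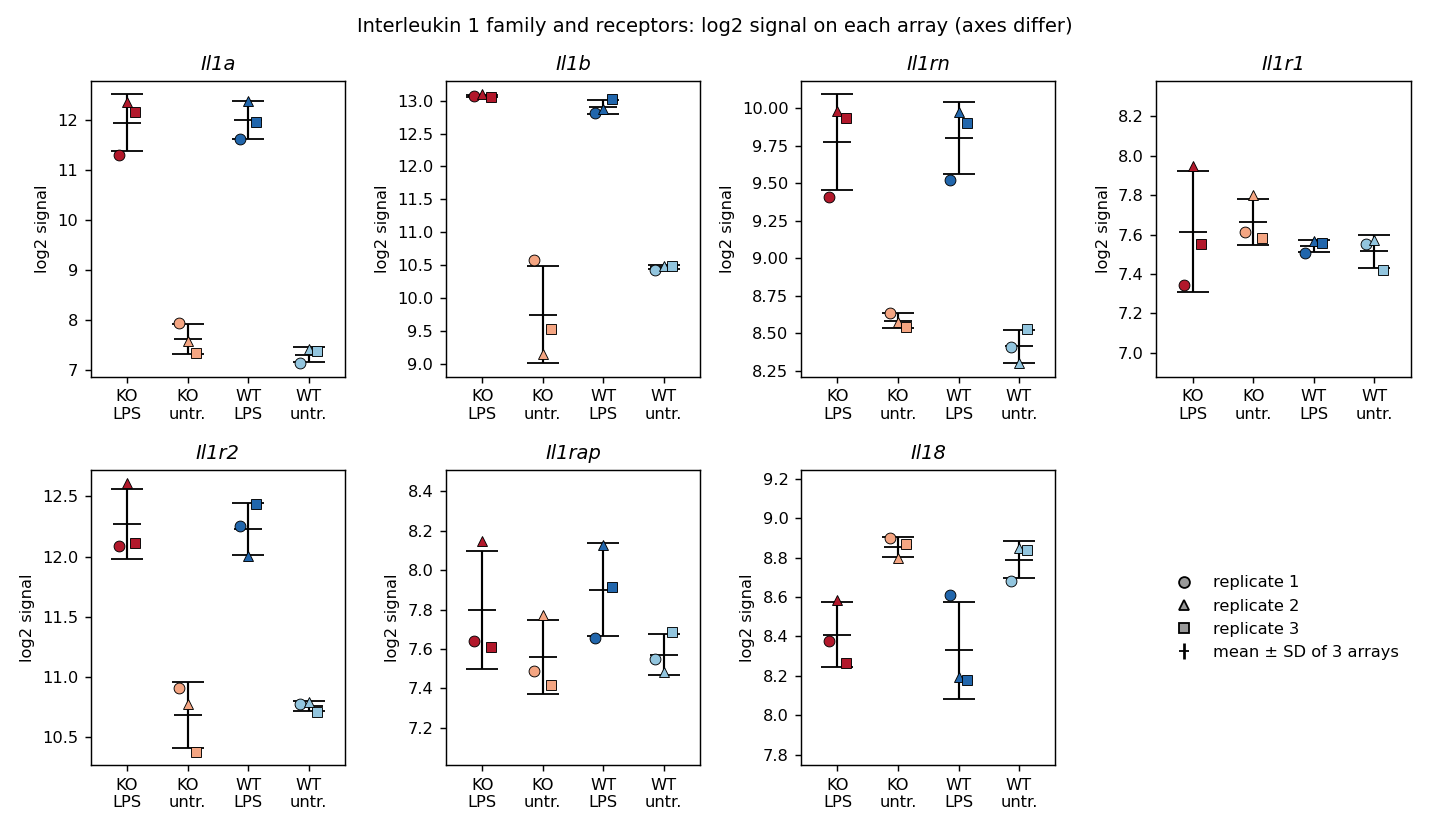
Log2 signal of each of the 7 genes on the 12 arrays, with 1 panel per gene and axes that differ between panels. Symbols mark replicate numbers and bars the mean ± SD of 3 arrays (KO, knockout; WT, wildtype; untr., untreated); in Il1a, Il1b, Il1rn and Il1r2 the LPS arrays sit above all untreated arrays, while in Il1r1 and Il1rap the LPS and untreated arrays of each genotype overlap.

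Il1a, which encodes the agonist that is active in its uncut form, gave the largest change of the 7. In knockout cells its log2 signal was 11.30, 12.37 and 12.17 after LPS (replicates 1 to 3), against 7.95, 7.59 and 7.35 untreated. In wildtype cells it was 11.63, 12.39 and 11.97 after LPS, against 7.14, 7.43 and 7.38 untreated. The LPS and untreated arrays were thus separated by more than 3 log2 units in both genotypes, with replicate 1 lowest in each LPS group. Il1a rose 19.9-fold in knockout cells (log2 4.32, SE 0.28, adjusted p = 1.21e-05 by limma) and 25.7-fold in wildtype cells (log2 4.68, SE 0.39, adjusted p = 0.000286). Ordered by log2 difference among 22180 genes, it stood at place 5 in knockout and place 3 in wildtype cells.

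Il1b, the agonist released after caspase-1 cleavage, was already well above background without LPS. In knockout cells its log2 signal was 13.07, 13.10 and 13.05 after LPS, against 10.58, 9.15 and 9.52 untreated. Wildtype cells had 12.82, 12.88 and 13.02 after LPS, against 10.43, 10.48 and 10.48 untreated. The 6 LPS arrays were close together near the top of the scale, and the spread lay in the untreated knockout cells, where replicate 1 matched the wildtype level and replicates 2 and 3 were lower. Il1b rose 10.0-fold in knockout cells (log2 3.32, SE 0.28, adjusted p = 7.66e-05 by limma) and 5.43-fold in wildtype cells (log2 2.44, SE 0.39, adjusted p = 0.0131). Taken within a replicate number, the knockout changes were 2.49, 3.95 and 3.53, so replicate 1, with the highest untreated level, had the smallest change. The SD over untreated knockout arrays was 0.74, against 0.02 over the LPS-treated ones.

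Il1rn, the receptor antagonist, rose with its agonists but by less. In knockout cells its log2 signal was 9.41, 9.98 and 9.93 after LPS, against 8.64, 8.58 and 8.54 untreated. Wildtype cells had 9.52, 9.97 and 9.90 after LPS, against 8.40, 8.30 and 8.53 untreated. No LPS array overlapped an untreated one, and replicate 1 was again the lowest of each LPS group. The change was 2.28-fold in knockout cells (log2 1.19, SE 0.17, adjusted p = 0.0022 by limma) and 2.62-fold in wildtype cells (log2 1.39, SE 0.24, adjusted p = 0.0166). The gene has several annotated starts, used for secreted and intracellular forms, and the probe set does not tell them apart here.

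Il1r2, the decoy receptor, had a high signal in untreated cells and rose further. In knockout cells its log2 signal was 12.09, 12.61 and 12.12 after LPS, against 10.91, 10.77 and 10.38 untreated. In wildtype cells it was 12.25, 12.004 and 12.44 after LPS, against 10.77, 10.79 and 10.71 untreated. Every LPS array lay more than 1 log2 unit above every untreated array. Il1r2 rose 3.00-fold in knockout cells (log2 1.58, SE 0.18, adjusted p = 0.000643 by limma) and 2.78-fold in wildtype cells (log2 1.47, SE 0.26, adjusted p = 0.0197).

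Il1r1, the receptor chain that binds agonist and carries the signal, showed no such change. Its log2 signal was 7.35, 7.95 and 7.55 in LPS-treated knockout cells and 7.61, 7.80 and 7.58 in untreated knockout cells. In wildtype cells it was 7.50, 7.57 and 7.56 after LPS and 7.55, 7.57 and 7.42 untreated. LPS and untreated arrays overlapped in both genotypes, and the LPS difference was -0.05 in knockout cells (95% interval -0.37 to 0.27, adjusted p = 0.892 by limma) and 0.03 in wildtype cells (-0.43 to 0.48, adjusted p = 0.995).

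Il1rap, the accessory chain, also overlapped between treatments. Its log2 signal was 7.64, 8.15 and 7.61 in LPS-treated knockout cells, against 7.49, 7.77 and 7.42 untreated. Wildtype cells were at 7.66, 8.13 and 7.91 after LPS, against 7.55, 7.48 and 7.69 untreated. The highest value of each LPS group was that of replicate 2. Its LPS difference was 0.24 in knockout cells (95% interval -0.15 to 0.62, adjusted p = 0.491 by limma) and 0.33 in wildtype cells (-0.22 to 0.87, adjusted p = 0.823). Of its 3 probe sets, the other two averaged 4.52 and 5.48, below the median of unassigned probe sets.

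Il18 was the one gene of the 7 with a lower signal after LPS in all cultures. Its log2 signal was 8.38, 8.59 and 8.27 in LPS-treated knockout cells, against 8.90, 8.80 and 8.87 untreated. Wildtype cells had 8.61, 8.20 and 8.18 after LPS, against 8.68, 8.85 and 8.84 untreated. All LPS arrays lay below all untreated arrays in both genotypes, as they did for 14.8% of all genes in knockout and 13.9% in wildtype cells. The difference did not pass the test: it was -0.44 in knockout cells (SE 0.14, adjusted p = 0.0910 by limma) and -0.46 in wildtype cells (SE 0.19, adjusted p = 0.445). With the 12 arrays as separate samples it passed in both, with adjusted p = 0.0468 in knockout and 0.0410 in wildtype cells by limma. In knockout cells it also passed without the arrays that had Y-linked signal (-0.56, adjusted p = 0.0390) and without wildtype LPS replicate 1 (-0.44, adjusted p = 0.0464).

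**Figure D2:**
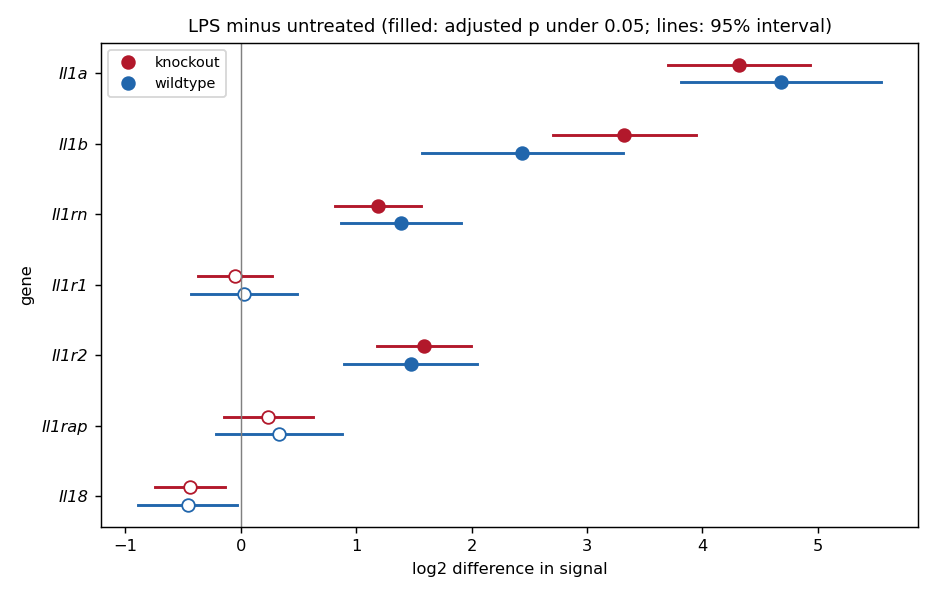
Log2 difference in signal between LPS-treated and untreated cells (horizontal axis) for each gene, in knockout and wildtype cells, with 95% intervals from limma; filled points passed an adjusted p of 0.05. Il1a, Il1b, Il1rn and Il1r2 are filled in both genotypes, from 1.19 for Il1rn to 4.32 for Il1a in knockout and from 1.39 to 4.68 in wildtype cells.

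The change of each gene on each LPS array was also set against that of another gene on the same array, as a description without a test. The change is the LPS value minus the untreated mean of that genotype. The change of Il1a exceeded that of the antagonist Il1rn by 3.13 ± 0.25 log2 units in knockout and 3.29 ± 0.19 in wildtype cells (SD, n = 3 LPS arrays each). For Il1b over Il1rn the excess was 2.14 ± 0.31 in knockout and 1.05 ± 0.19 in wildtype cells. Il1a exceeded Il1b by 0.99 ± 0.56 in knockout and 2.24 ± 0.37 in wildtype cells. The decoy Il1r2 exceeded the signalling receptor Il1r1 by 1.64 ± 0.09 and 1.45 ± 0.23. Agonists therefore gained on the antagonist, and decoy on signalling receptor, on all 6 LPS arrays. The pairs with Il1b did not overlap between genotypes, and how many pairs among all genes do so was not counted. The interaction of genotype and LPS did not pass for Il1b (adjusted p = 0.948 by limma). This SD leaves out the spread of the untreated knockout arrays, over which Il1b ranged from 9.15 to 10.58. All values of a genotype share its untreated mean, and untreated Il1b differed by -0.72 between knockout and wildtype cells.

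**Figure D3:**
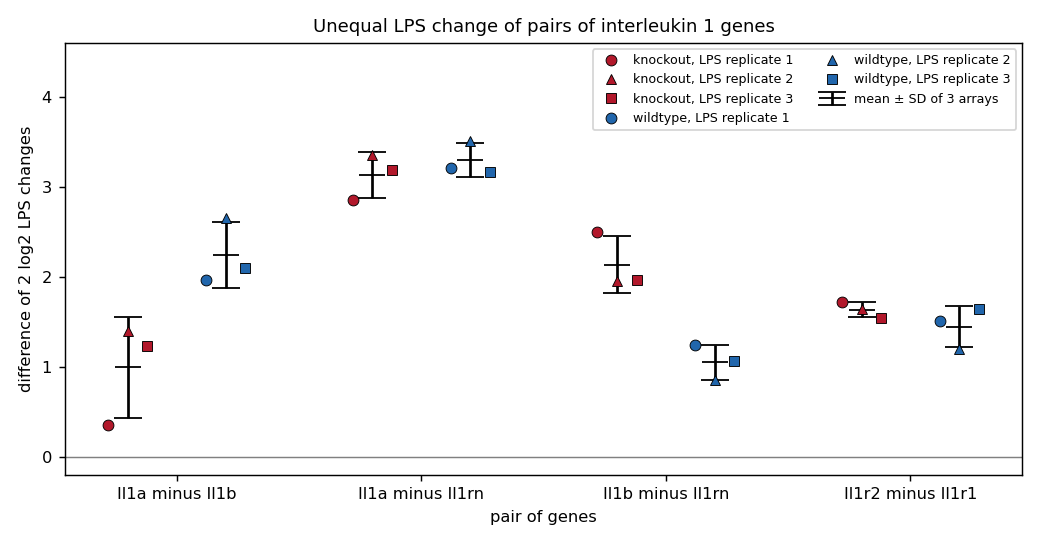
Difference between the log2 LPS changes of 2 genes on the same array (vertical axis) for 4 pairs of genes, with 1 symbol per LPS array and the mean ± SD of 3 arrays. All 24 points lie above 0. The pairs that contain Il1b had unlike means in knockout and wildtype cells, without a test (0.99 and 2.24 for Il1a minus Il1b, 2.14 and 1.05 for Il1b minus Il1rn).

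After LPS, signals of Il1a, Il1rn and Il1r1 were higher on the arrays with low small nucleolar RNA signal. On the 4 LPS arrays where that signal was low, Il1a was at 11.97 to 12.39, Il1rn at 9.90 to 9.98 and Il1r1 at 7.55 to 7.95. On the other 2 LPS arrays, which are replicate 1 of each genotype, Il1a was at 11.30 to 11.63, Il1rn at 9.41 to 9.52 and Il1r1 at 7.35 to 7.50, with no overlap. The nearest arrays of these sets were at 7.5049 and 7.5499 for Il1r1. How many of all genes split in this way was not counted, so the split cannot be read as particular to Il1a, Il1rn and Il1r1. Il1b, Il1r2, Il1rap and Il18 overlapped between these sets of arrays. Without the 4 arrays, each LPS group held 1 array, and the spread in the fit came from the 3 untreated knockout arrays alone, so a call then says little about the spread after LPS or in wildtype cells. The log2 differences were 3.67 for Il1a, 3.32 for Il1b, 0.82 for Il1rn and 1.40 for Il1r2 in knockout cells, and 4.32, 2.35, 1.11 and 1.49 in wildtype cells. By limma the adjusted p-values in wildtype cells were then 0.0112 for Il1a, 0.228 for Il1b, 0.0815 for Il1rn and 0.108 for Il1r2, so the last 3 did not pass. A term for these arrays kept all 4 past the threshold in knockout cells and all but Il1r2 in wildtype cells (1.39, adjusted p = 0.0637). Without wildtype LPS replicate 3, Il1rn (1.34, adjusted p = 0.0560) and Il1r2 (1.37, adjusted p = 0.0621) also fell short in wildtype cells. Without wildtype LPS replicate 1, Il1r2 fell short there too (1.46, adjusted p = 0.0517), and with only the wildtype arrays in the fit Il1rn did (1.39, adjusted p = 0.0520).

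Markers of other cells that make or bind interleukin 1 fell in part with LPS. Neutrophils express Il1b, Il1r2 and Il1rn strongly. The mean log2 signal of 15 neutrophil markers was 7.75 to 8.13 in LPS-treated and 8.56 to 8.89 in untreated knockout cells, and 7.43 to 8.41 in LPS-treated and 8.84 to 8.89 in untreated wildtype cells. Of these markers, 6 passed as lower in knockout cells and 1 in wildtype cells, where the SE was larger. Their median difference was -0.65 in knockout and -0.95 in wildtype cells. Between 13 and 15 of them lay above the median of unassigned probe sets on all arrays of a group. Of 8 monocyte markers, 3 passed as lower in knockout cells and 1 in wildtype cells, with median differences of -0.86 and -0.94. Their marker mean was 8.53 to 9.08 after LPS and 9.57 to 9.74 untreated in knockout cells. In wildtype cells that mean was 8.72 to 9.09 after LPS and 9.80 to 9.92 untreated. The marker means thus went down where Il1b, Il1r2 and Il1rn went up, and the part of these cells in the interleukin 1 signals was not tested. The 5 stromal markers, whose cell type is rich in Il1r1, averaged 5.44 to 5.83 over all arrays, below the level of unassigned probe sets, although 2 of the 5, Col1a1 and Col1a2, lay above it on all arrays. Among them, 1 gene, Lum, fell in knockout cells (-0.48). Of 9 macrophage markers 1 fell in knockout cells (Lyz2, -0.86), of 8 mast cell and basophil markers 1 rose (Hdc, 1.21), and of 6 lymphocyte markers 0 passed. In wildtype cells 0 markers of these 4 lists passed, with Lum at -0.33, Lyz2 at -0.63 and Hdc at 0.78.

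The genes whose pattern was most like that of each responding member were found by the root mean square difference of the centred log2 signals over the 12 arrays. Predicted genes, small RNA genes and Rik symbols were left out. A small value requires an LPS change of like size, such as 4.57 for Cxcl10 beside 4.32 for Il1a in knockout cells. Closest to Il1a were Cxcl10 (0.15), which encodes a T cell-attracting chemokine, Rasgef1b (0.26) and Tnf (0.26). Il1b was nearest to Vmn2r90 (0.28), Pvr (0.32), which encodes a cell adhesion receptor, and the neutrophil chemokine gene Cxcl1 (0.39). Vmn2r90 is a vomeronasal receptor gene whose untreated signal (3.87 to 5.70) lay below the level of unassigned probe sets. For Il1rn the list was Ralgds (0.11), the integrin gene Itgav (0.14) and the histone methyltransferase gene Dot1l (0.15), and for Il1r2 it was Traf4 (0.15), the proteoglycan gene Sdc4 (0.16) and Socs3 (0.18), a suppressor of cytokine signalling.

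Beyond the 7 genes, some ligands of the wider family rose after LPS. Of 6 other ligands, 2 rose in knockout cells and 1 in wildtype cells. Il1f9, which has Il36g among its synonyms, was at 8.81, 9.86 and 9.68 in LPS-treated knockout cells, against 7.95, 7.78 and 7.60 untreated. In wildtype cells it was at 8.80, 9.70 and 9.96 after LPS, against 7.81, 7.91 and 7.87 untreated. It rose 3.19-fold in knockout cells (log2 1.68, SE 0.31, adjusted p = 0.0103 by limma), while the similar difference in wildtype cells did not pass (1.62, SE 0.44, adjusted p = 0.132). Il1f6, which has Il36a among its synonyms, rose in both genotypes (0.89 in knockout and 0.85 in wildtype cells, adjusted p = 0.0023 and 0.0448 by limma). Its untreated signal of 5.97 to 6.21 was at background level, so this is a ratio of signals. The list median was 0.29 in knockout and 0.37 in wildtype cells, and Il33, an alarmin, did not pass in either (0.25 and 0.46). Of 7 other receptors and binding proteins, 0 passed in either genotype by limma. The smallest p was that of Il1rl2, the receptor of the interleukin 36 ligands (-0.91, adjusted p = 0.0665 in knockout and -0.76, adjusted p = 0.546 in wildtype cells). Next came Sigirr, a negative regulator of the family, in knockout cells (-0.30, adjusted p = 0.216) and Il18rap, the accessory chain of the interleukin 18 receptor, in wildtype cells (-0.30, adjusted p = 0.850). The medians of that list were -0.22 and -0.11. With the replicate number as a block, 2 of these receptors were called lower in knockout cells. Such a block also called more of all 22180 genes there (2312 or 2539, by the samples kept, against 1311).

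Genes that process or relay interleukin 1 changed in part. Of 14 inflammasome and processing genes, 3 rose and 1 fell in knockout cells (list median -0.21), and 1 rose in wildtype cells (list median -0.04). With the replicate number as a block, 3 rose and 3 fell in knockout cells. Nlrp3, the sensor that activates caspase-1, was at 10.27, 11.08 and 10.77 in LPS-treated knockout cells, against 8.54, 8.95 and 8.30 untreated. It rose in both genotypes, by 2.11 in knockout (SE 0.22, adjusted p = 0.000348 by limma) and 2.10 in wildtype cells (SE 0.32, adjusted p = 0.0086). In knockout cells the non-canonical caspase gene Casp4 (0.87, SE 0.17) and Ninj1 (0.51, SE 0.12), which encodes a mediator of membrane rupture, rose, and the adaptor gene Pycard fell (-0.65, SE 0.15, adjusted p = 0.0264 by limma). Casp4 (0.83, SE 0.25), Ninj1 (0.64, SE 0.17) and Pycard (-0.47, SE 0.21) went the same way in wildtype cells and did not pass there. Casp1 itself was at -0.35 in knockout and -0.04 in wildtype cells and did not pass in either.

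Of 21 genes of interleukin 1 receptor signalling, which Toll-like receptors share, 9 rose and 1 fell in knockout cells (list median 0.36) and 5 rose in wildtype cells (list median 0.41). Nfkbiz, an inducible NF-kB cofactor, was at 11.78, 12.11 and 12.08 in LPS-treated knockout cells, against 8.29, 7.56 and 7.95 untreated, a rise of 4.06 (SE 0.17), and it rose by 3.98 (SE 0.24) in wildtype cells. The kinase gene Map3k8 rose by 1.14 in knockout and 1.17 in wildtype cells, the NF-kB inhibitor gene Nfkbia by 0.95 and 1.00, and the ubiquitin ligase gene Peli1 by 0.83 and 0.82. All of these passed in both genotypes, with adjusted p from 9.94e-07 to 0.0251 by limma. Irak2 passed in knockout cells (0.55, SE 0.13, adjusted p = 0.0377 by limma) and not in wildtype cells (0.72, SE 0.19, adjusted p = 0.115). The adaptor gene Myd88 passed in neither genotype (0.36 and 0.50).

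**Figure D4:**
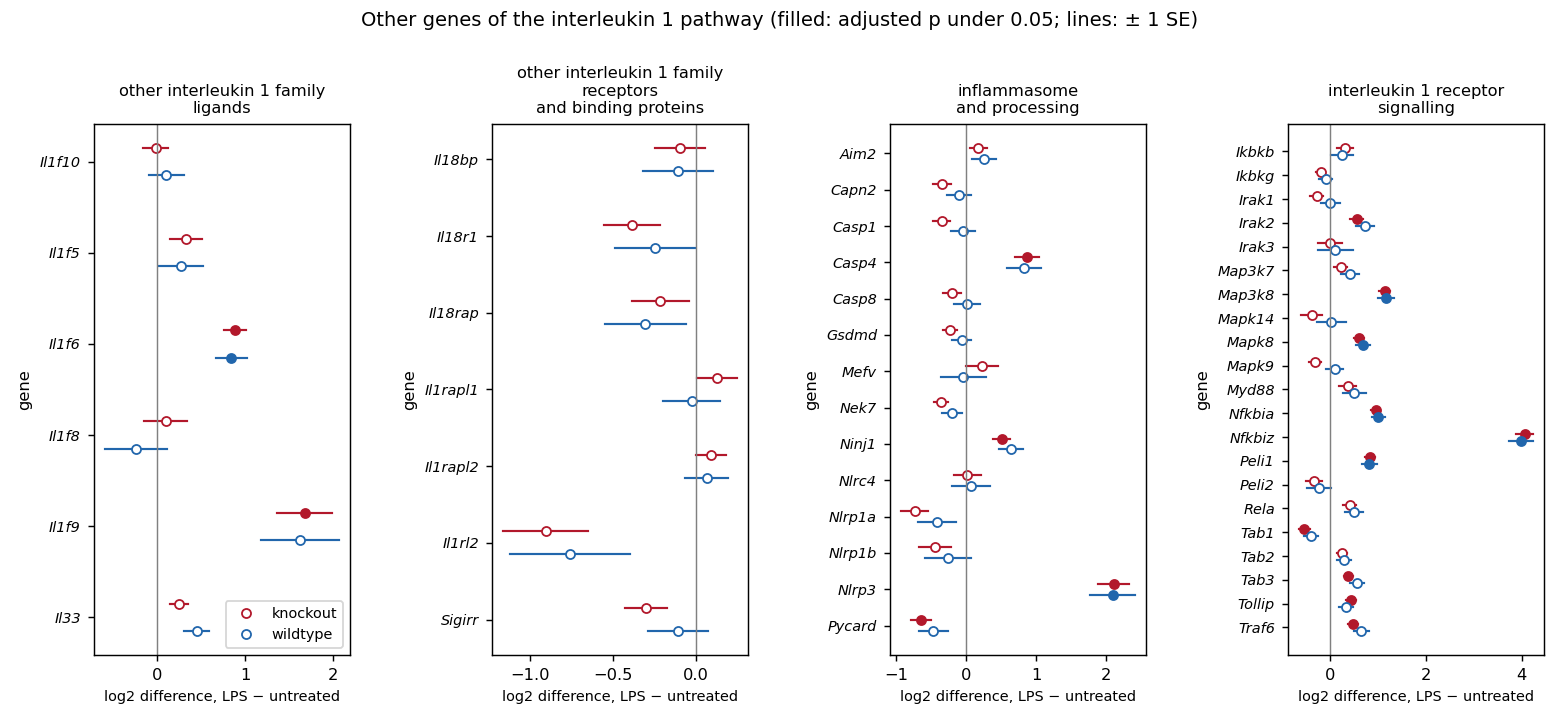
Log2 difference in signal between LPS-treated and untreated cells (horizontal axis, ± 1 SE) for other genes of the interleukin 1 pathway in 4 lists, in knockout and wildtype cells; filled points passed an adjusted p of 0.05. Nfkbiz stands at about 4 in both genotypes and Nlrp3 at 2.11 and 2.10, and no point of the receptor list is filled.

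No difference between knockout and wildtype was detectable in any of the 7 genes. The untreated comparison has little room for calls: Arc itself, at -1.48 (SE 0.20), did not pass there (adjusted p = 0.177 by limma), while it passed after LPS (-1.50, SE 0.14, adjusted p = 0.0059). Of these, 0 passed in untreated cells, after LPS, over both treatments or for the interaction of genotype and LPS (limma), and 0 had an unadjusted p under 0.05 in any of these comparisons. Of all genes, 0.00451% were called between knockout and wildtype in untreated cells, 0.00902% after LPS and 0.0135% over both treatments, and 0% for the interaction, so a count of 0 members is near the background. At an unadjusted p under 0.05 there were 897, 877, 732 and 982 genes in these 4 comparisons. The median difference over the 7 genes was 0.06 in untreated and 0.04 in LPS-treated cells.

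Among untreated cells the largest difference was that of Il1b, at -0.72 between knockout and wildtype (95% interval -1.59 to 0.15, adjusted p = 0.970 by limma). It rested on untreated knockout replicates 2 and 3: without replicate 1 it was -1.13, and without replicate 2 it was -0.42. Il1a differed by 0.31 (-0.55 to 1.18), and the other 5 by -0.07 to 0.17. Il1rn and Il1r1 were higher on all 3 untreated knockout arrays than on all 3 wildtype ones, as were 17.7% of all genes (11.6% lay below), and their differences were 0.17 (-0.35 to 0.70) and 0.15 (-0.31 to 0.61).

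After LPS, knockout minus wildtype was -0.05 for Il1a (95% interval -0.67 to 0.56), 0.17 for Il1b (-0.45 to 0.78), -0.03 for Il1rn (-0.40 to 0.34) and 0.04 for Il1r2 (-0.37 to 0.45). For Il1r1, Il1rap and Il18 it was 0.07 (-0.25 to 0.40), -0.10 (-0.49 to 0.28) and 0.08 (-0.22 to 0.38). Il1b was higher on all 3 knockout arrays than on all 3 wildtype arrays, as were 2.81% of all genes (4.96% lay below), and its interval includes 0. Differences of 2-fold thus lie outside these intervals for all 7 genes after LPS, and smaller ones cannot be told from 0. In untreated cells the intervals of Il1a and Il1b reach past 1 log2 unit.

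**Figure D5:**
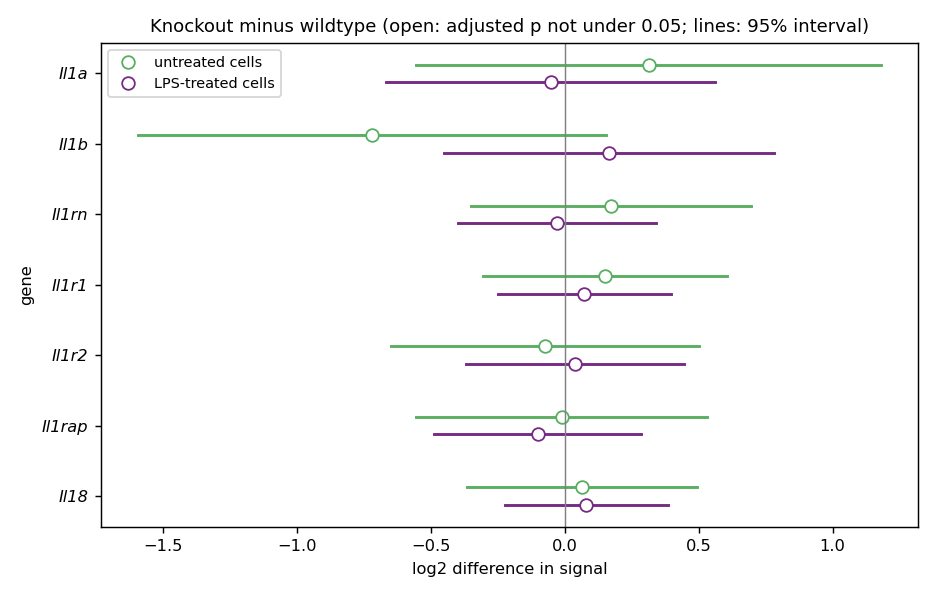
Log2 difference in signal between knockout and wildtype cells (horizontal axis) for each gene, in untreated and LPS-treated cells, with 95% intervals from limma. All points are open, since 0 of 7 genes passed an adjusted p of 0.05, and all intervals include 0. That of Il1b in untreated cells runs from -1.59 to 0.15.

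The interaction asks whether the LPS change itself differed between genotypes. It was 0.88 for Il1b (95% interval -0.18 to 1.95, unadjusted p = 0.0955 and adjusted p = 0.948 by limma) and -0.36 for Il1a (-1.43 to 0.70). For the other 5 genes it lay between -0.20 and 0.11. Without untreated knockout replicate 1 the value for Il1b was 1.30 (adjusted p = 0.371), and without replicate 2 it was 0.58 (adjusted p = 0.987), so 1 array moved it by more than 1.5 times.

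Put in order, the group levels of Il1a, Il1b, Il1rn and Il1r2 had both LPS groups on top and both untreated groups below. The LPS groups overlapped for Il1a (11.95 in knockout and 11.999 in wildtype cells), Il1rn (9.77 and 9.80) and Il1r2 (12.27 and 12.23), and stood apart by array for Il1b (13.07 and 12.91). The nearest Il1b arrays were at 13.054 and 13.024, and 2.81% of all genes had this order. The untreated groups overlapped for Il1a (7.63 and 7.32), Il1b (9.75 and 10.47) and Il1r2 (10.69 and 10.76), and stood apart for Il1rn (8.58 and 8.41). The nearest Il1rn arrays were at 8.538 and 8.527, an order that 17.7% of all genes had. Il18 had the untreated groups on top (8.85 and 8.79) and the LPS groups below (8.41 and 8.33), each pair overlapping. For Il1r1 and Il1rap all neighbouring groups overlapped.

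The wider pathway showed as little between genotypes: 0 genes of the 4 pathway lists passed in any of the 4 genotype comparisons by limma. In untreated cells the smallest p of each list belonged to Il1f8 (-0.27 in knockout minus wildtype), Il18bp, which encodes the soluble inhibitor of interleukin 18 (0.23), Casp1 (0.28) and the kinase gene Mapk9 (0.37), and after LPS to Il33 (-0.10), Il18bp (0.24), the protease gene Capn2 (-0.14) and the kinase gene Mapk8 (0.21). Adjusted p-values were 0.970 or higher in untreated cells and 0.999 after LPS.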

How the data were processed

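RNA of 12 dendritic cell cultures was measured on microarrays. The deposited values are log2 signals, normalized by the authors; how background and normalization were handled is not stated by any source used here, and limma is the tool named in the submitters' processing notes. Of 34390 probe sets, 23521 carry 1 gene, 1814 several and 9055 none; the probe set with the highest mean stood for a gene. On arrays, their number limits the precision.

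The members and lists were chosen with earlier results of these data known. Tests used limma 3.58.1 in R 4.3.3 (lmFit and eBayes), two-sided; p-values of each comparison were adjusted by Benjamini-Hochberg for 22180 genes, at a threshold of 0.05, over 10 counted samples with 6 residual degrees of freedom. The lone untreated wildtype sample is assumed to vary like the others. The procedure was tested on simulated data. The text names the 7 genes, Arc, listed genes past the threshold with the smallest p, and the 3 genes most alike. Where none passed, 1 or 2 with the smallest p are named. Il33, Casp1, Irak2 and Myd88 after LPS and single markers fall outside this rule and were chosen after their values were seen. The same holds for the wildtype values of Il1f9, Casp4, Ninj1 and Pycard.

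Replicate numbers paired knockout LPS with knockout untreated arrays (correlations of residuals 0.381, 0.299 and 0.196) and with wildtype LPS arrays (0.338, 0.358 and 0.228), from the data and not the labels. Untreated knockout with wildtype LPS arrays gave 0.145, 0.196 and 0.175. Untreated wildtype arrays were not paired with wildtype LPS arrays (-0.028, 0.0087 and -0.017) or with untreated knockout arrays (-0.0090, -0.053 and -0.020). With knockout LPS arrays they gave 0.0888, 0.113 and 0.015. Correlations between different replicate numbers were not computed. Alternatives varied the counting of samples, block, normalization, filter, variance model and arrays.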

Additional observations from a re-analysis of the deposited data

How the results depend on the processing

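Beside the reported setting, 28 others were run. In knockout cells the count of 4 interleukin 1 genes higher after LPS was 4 under every one that gave a value, and the count lower was 0 except with 12 separate samples, with array weights and without the arrays with Y-linked signal, where Il18 made it 1 (leaving out single arrays gave 0 to 1, with 1 without wildtype LPS replicate 1). In wildtype cells the count higher was 1 without the arrays of low small RNA signal, a fit whose spread came from untreated knockout arrays alone, and 2 to 4 when single arrays were left out (2 without wildtype LPS replicate 3). The count lower was 0, or 1 with 12 separate samples, with the replicate block on 12 separate samples and with array weights. In the 4 genotype comparisons the counts were 0 under all alternatives run.

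With the replicate block on the 9 samples without untreated wildtype cells, the log2 LPS change of Il1a in knockout cells was 4.32 (adjusted p = 2.06e-05 by limma), and the block changed no call there or between genotypes after LPS. In these 2 comparisons it called 2312 and 4 of all genes, against 1311 and 2. Over all genes the LPS count ranged from 562 (without the arrays of low small RNA signal) to 4698 (array weights) in knockout cells, and from 76 to 2437 (replicate block with 12 samples) in wildtype cells, against 349. The counts for knockout against wildtype were 1 to 257 untreated, 1 to 15 after LPS and 1 to 39 over both, and 0 to 280 for the interaction. Among listed signalling genes the count higher ranged from 3 to 12 in knockout cells (reported 9) and 1 to 11 in wildtype cells (reported 5). Differences called in neither setting changed sign in 63 of 886 comparisons. The cause of these changes was not tested. Precision is limited by 3 arrays a group and by 1 counted untreated wildtype sample.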
